A study of Mus musculus with 9 samples.

Results

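Wnt ligands, their receptors and their secreted antagonists were followed in ribosome footprints from immortalized mouse striatal cells that carry a Huntington disease knock-in allele. The members were chosen by symbol and numbered 54 of the 36410 genes in the table. They were the Wnt ligands, the Frizzled receptors, the co-receptors Lrp5, Lrp6, Ror1 and Ror2, and the R-spondins. The secreted frizzled-related proteins, the Dickkopf proteins and Wif1 formed the antagonists, and the ubiquitin ligases Rnf43 and Znrf3, the axins and the TCF/LEF factors completed the set. The libraries came from 3 cell lines, STHdhQ7/Q7 (control, 7 glutamines on each huntingtin allele), STHdhQ7/Q111 (HD-het, 7 and 111 glutamines) and STHdhQ111/Q111 (HD-homo, 111 glutamines on each allele), with 3 libraries per line from separate rounds of culture. All were derived from striatum of mouse embryos, are labelled with the C57/BL6 strain, and were treated with cycloheximide for 10 min before fragments of 26 to 32 nt were collected. Each genotype was 1 immortalized line, so a difference between genotypes and a difference between lines cannot be told apart, and a footprint count does not separate the amount of an mRNA from how much it is translated.

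Wnts are lipid-modified secreted proteins that bind Frizzled receptors. Together with LRP5 or LRP6 this stops the axin complex from degrading beta-catenin, which then joins TCF/LEF factors on DNA, whereas ROR1 and ROR2 take part in beta-catenin-independent responses such as planar polarity. R-spondins raise the number of receptors at the surface by restraining the ubiquitin ligases ZNRF3 and RNF43, and SFRPs, WIF1 and Dickkopf proteins act outside the cell on ligands or co-receptors. In the embryonic forebrain the pathway patterns the dorsal and ventral telencephalon and regulates the growth of precursors.

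The libraries held 22504543 to 41888701 footprints assigned to genes. Levels are given as CPM, the count of a gene relative to the total of its library, scaled between libraries by edgeR's trimmed mean of M values (TMM), and a floor of 3 counts corresponded to 0.0714 to 0.142 CPM. Members took 0.0294 to 0.0502% of all counts. The genes Gsx2, Isl1, Bcl11b, Drd1 and Drd2, which define striatal precursors and neurons, were at or under the floor in every library. Of the 14 listed neural and striatal genes above the floor, 7 had their highest mean in HD-homo, 5 in HD-het and 2 in control. Summed over the list, levels were lowest in HD-homo, at 288 to 315 CPM, against 673 to 806 in control and 1398 to 1504 in HD-het. Nes, an intermediate filament of neural precursors, was at 399.5 ± 82.6 CPM in control against 1086 ± 77.8 in HD-het and 7.01 ± 0.611 in HD-homo (mean ± SD, n = 3), whereas Dlx2, a homeobox factor of the ventral forebrain, was at 9.25 ± 1.94, 2.11 ± 0.794 and 19.9 ± 7.46. Summed levels of 11 mesenchymal and mural markers, carried mostly by Col1a1, Fn1 and Acta2, were 8643 to 13282 CPM in control against 40396 to 49987 in HD-het and 7962 to 11052 in HD-homo. Of the 10 above the floor, 6 were highest in HD-het, and Col1a2, Pdgfra, Twist1 and Prrx1 were highest in HD-homo (Pdgfra at 3.81 ± 1.15, 6.85 ± 2.23 and 155 ± 36.6 CPM). The sums of 7 microglial markers were 6.96 to 9.58, 22.6 to 35.5 and 7.19 to 8.51 CPM in the same order, each mostly from Tmem119, with Aif1 and Cx3cr1 at or under the floor and Csf1r highest in HD-homo at 1.06 ± 0.347 CPM. In these bulk libraries fewer cells of a type and less RNA per cell cannot be told apart. Within their lines, 28 of the 37 tested members were highest in HD-het 3, as were 42.1% of all tested genes, 25 were lowest in HD-homo 2 (37.3% of all genes) and 24 were lowest in control 3 (36.4%). Fold changes below are given on the log2 scale with their standard error.

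A filter on low counts left 37 members for testing by edgeR's quasi-likelihood test with Benjamini-Hochberg adjustment over 12678 genes, at an adjusted p under 0.05. A member could pass it through a single line. Of the 17 not tested, 12 never exceeded 3 counts in a library: Wnt3, Wnt3a, Wnt8a, Wnt8b, Wnt9b, Fzd10, Rspo1, Rspo4, Dkk1, Dkk4, Sfrp5 and Rnf43, of which Dkk1, Dkk4, Rspo1, Wnt3a, Wnt8b and Wnt9b had no count at all. Among the tested members 33 differed somewhere among the lines, where 78.4% of all tested genes did. In HD-het against control 19 members were higher and 6 lower, against 31.0% and 29.1% of all genes. In HD-homo against control 12 were higher and 11 lower, against 23.3% and 22.3%. In HD-homo against HD-het 9 were higher and 18 lower, against 34.6% and 32.8%. The 3 comparisons share libraries and are given side by side. Calls of at least 4-fold were made for 27.0%, 32.4% and 35.1% of tested members in these comparisons, in the same order, and for 7.70%, 9.41% and 12.03% of all genes. By mean level, 18 tested members were highest in HD-het, 10 in control and 9 in HD-homo.

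**Figure D1:**
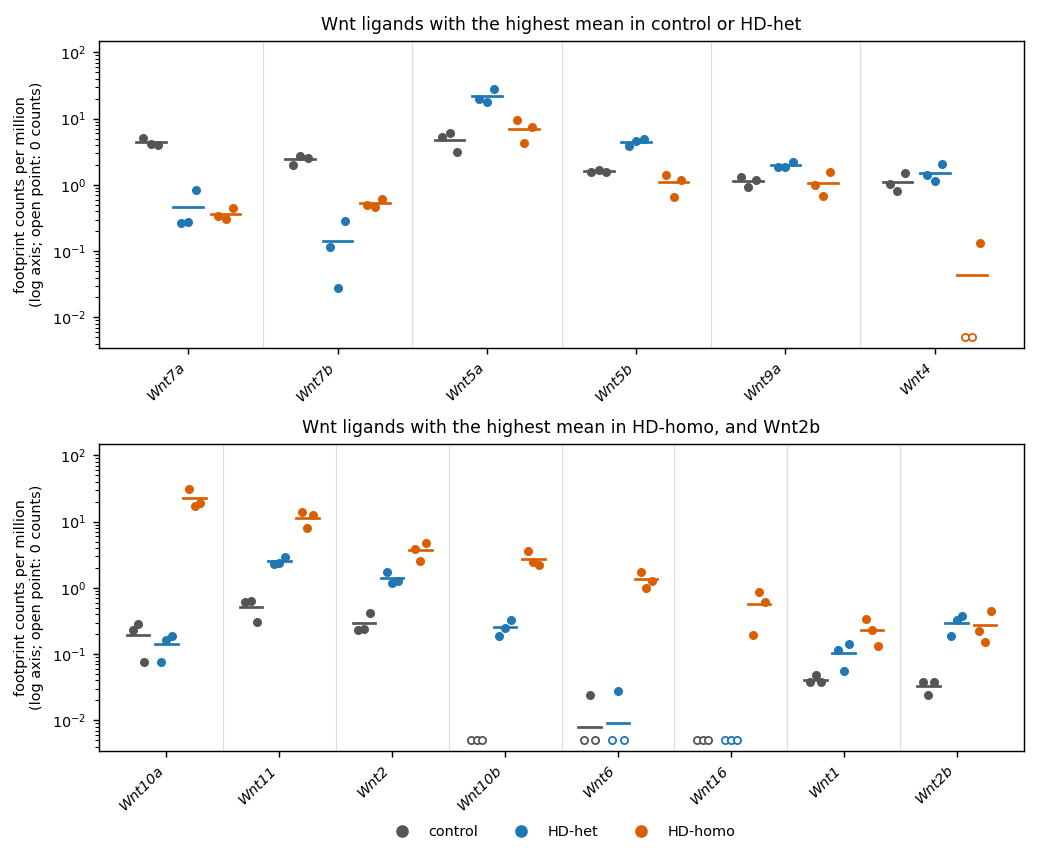
Footprint CPM (log axis) of 14 Wnt ligands in each of the 9 libraries; points are libraries, bars are means of 3, and open points mark libraries with 0 counts, drawn at the bottom. Wnt7a and Wnt7b sit highest in control, Wnt5a and Wnt5b in HD-het, and Wnt10a, Wnt11, Wnt2, Wnt10b, Wnt6 and Wnt16 in HD-homo.

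The most abundant Wnt ligands differed from line to line. Wnt10a, Wnt11, Wnt2, Wnt10b and Wnt6 averaged 0.518 CPM or less in control, and in HD-homo each stood above either other line. Wnt10a, a ligand known from tooth and skin appendage development that signals through beta-catenin, had 0.229, 0.285 and 0.0752 CPM in control, 0.0759, 0.165 and 0.189 in HD-het, and 31.1, 17.4 and 19.4 in HD-homo. Every HD-homo library stood far above the other 6, while control and HD-het overlapped. The fitted rise was 106-fold over control (log2 fold change 6.73 ± 0.35, edgeR adjusted p = 4.65e-08) and 154-fold over HD-het (log2 fold change 7.27 ± 0.37, edgeR adjusted p = 3.36e-08). The Wnt6 gene ends 6.7 kb before the start of Wnt10a on the same strand of chromosome 1, with no annotated gene between them. Wnt6 had 0, 1 and 0 footprints in control, 0, 1 and 0 in HD-het, and 63, 26 and 29 in HD-homo. The ratio of pooled, depth-scaled counts of HD-homo over control was 132-fold, with a 95% exact counting interval of 23.3 to 5263 (edgeR adjusted p = 5.11e-06). Over HD-het it was 117-fold, with a 95% exact counting interval of 20.6 to 4655 (edgeR adjusted p = 3.77e-06). Each ratio rests on 1 footprint in the lower line, and without control 2 or HD-het 2, which held it, the level was at least 11.8-fold or at least 10.5-fold higher, against the floor. These neighbours were high in the same line. Another close pair, Wnt10b and Wnt1, also had their highest means in HD-homo, as given below. Wnt3a, 16.1 kb from Wnt9a with no gene between, had no count, whereas Wnt9a was read in every library. Wnt9b and Wnt3, which overlap, were at or under the floor. A link between distance and level was not tested.

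Wnt10b, which restrains adipocyte formation and also signals through beta-catenin, had 0, 0 and 0 footprints in control, 5, 9 and 7 in HD-het, and 131, 64 and 50 in HD-homo. No footprint was seen in control. Against the floor of 3 counts per library its level was at least 27.8-fold higher in HD-homo (edgeR adjusted p = 2.30e-06) and at least 2.57-fold higher in HD-het (edgeR adjusted p = 0.000870). HD-homo exceeded HD-het 10.98-fold (log2 fold change 3.46 ± 0.33, edgeR adjusted p = 1.22e-05). Its neighbour on chromosome 15, Wnt1, lies 11.65 kb away on the opposite strand and had 1, 2 and 1 footprints in control, 3, 2 and 3 in HD-het, and 12, 6 and 3 in HD-homo, too few to be tested. The ratio of HD-homo over control for Wnt1, a ligand of the midbrain organizer, was 5.88-fold, with a 95% exact counting interval of 1.98 to 23.6. Both genes of this pair had their highest mean in HD-homo and their lowest in control.

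Wnt11 and Wnt2 rose in graded fashion across the lines. Wnt11, which acts mainly in cell movement and polarity, had 0.611, 0.642 and 0.301 CPM in control, 2.32, 2.34 and 2.93 in HD-het, and 13.8, 7.91 and 12.6 in HD-homo. None of the 3 lines overlapped with another. The steps were 4.68-fold from control to HD-het (log2 fold change 2.23 ± 0.31, edgeR adjusted p = 0.000105) and 4.57-fold from HD-het to HD-homo (log2 fold change 2.19 ± 0.24, edgeR adjusted p = 9.37e-06). Wnt2, a ligand of lung and vascular development, had 0.229, 0.238 and 0.414 CPM in control, 1.75, 1.18 and 1.28 in HD-het, and 3.92, 2.56 and 4.74 in HD-homo. Its lines did not overlap either. There was 4.81-fold more in HD-het than in control (log2 fold change 2.27 ± 0.36, edgeR adjusted p = 0.000237) and 2.67-fold more in HD-homo than in HD-het (log2 fold change 1.42 ± 0.26, edgeR adjusted p = 0.000567). Wnt16 was read in HD-homo alone, with 7, 23 and 14 footprints in its 3 libraries, and was too low to be tested. This was at least 5.67-fold higher than in control and at least 5.01-fold higher than in HD-het.

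For 3 ligands that were high in HD-homo, the 250 bases before a listed start are shown from RefSeq promoters (build GRCm38.p6, the assembly of mm10). Wnt11 is shown because its window held matches to the motifs below, and Wnt6 and Wnt10b as the tested ligands with at most 1 footprint in any control library. The windows lie at chr7:98834862-98835111, plus strand for Wnt11, chr1:74771642-74771891, plus strand for Wnt6 and chr15:98778151-98778400, minus strand for Wnt10b. The listed starts differ from those of the annotated genes. The Wnt6 window lies inside its gene, which begins at base 74754342. The Wnt11 and Wnt10b windows reach past gene starts at 98835084 and 98778206. Both strands were searched for 4 forms of the TCF/LEF motif, in which CTTTG is followed by AA, AT, TA or TT, and for the TATA box, spelled TATAAA. Capitals mark the matches.
Wnt11: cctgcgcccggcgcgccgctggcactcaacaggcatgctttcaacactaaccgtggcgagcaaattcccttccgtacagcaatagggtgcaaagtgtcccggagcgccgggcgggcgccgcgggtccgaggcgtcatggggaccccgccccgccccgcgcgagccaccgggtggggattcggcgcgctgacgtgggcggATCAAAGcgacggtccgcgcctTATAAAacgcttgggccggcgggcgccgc
Wnt6: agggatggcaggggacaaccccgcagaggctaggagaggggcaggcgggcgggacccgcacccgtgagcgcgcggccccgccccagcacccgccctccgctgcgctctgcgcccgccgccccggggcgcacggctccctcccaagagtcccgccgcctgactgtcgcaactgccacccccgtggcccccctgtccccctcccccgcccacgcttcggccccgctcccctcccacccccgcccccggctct
Wnt10b: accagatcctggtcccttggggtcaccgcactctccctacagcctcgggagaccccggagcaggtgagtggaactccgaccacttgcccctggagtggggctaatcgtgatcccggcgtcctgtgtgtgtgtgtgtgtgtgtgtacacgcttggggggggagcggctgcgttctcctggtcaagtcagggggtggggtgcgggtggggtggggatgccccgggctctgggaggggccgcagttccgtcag
The Wnt11 window, at the first of its 2 listed starts, held 1 TCF/LEF motif on the opposite strand, which ended 44 bases before the start, and a TATA box that began 29 bases before it. Neither motif was found in the Wnt6 and Wnt10b windows, nor in the listed windows of Wnt2 and Wnt16, which are not shown. The Wnt11, Wnt6 and Wnt10b windows held 37, 28 and 14 CpG, against a mean of 20.9 over member windows and 9.86 over all windows. Windows were listed for 36 members (45 windows, GC content 65.9% on average against 53.2% over all 32841 windows). A TCF/LEF motif was present in 6 of them (13.3%), against 14.8% of all windows, and a TATA box in 8 (17.8%), against 12.4%. A match is a description of these letters and no evidence of binding.

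Wnt7a and Wnt7b, which act in forebrain vessel formation and neuronal maturation, ran the other way. Wnt7a had 5.15, 4.21 and 4.06 CPM in control, 0.266, 0.275 and 0.851 in HD-het, and 0.334, 0.306 and 0.443 in HD-homo. All control libraries stood above all others, and the mutant lines overlapped. Control was 10.3-fold over HD-het (log2 fold change -3.37 ± 0.33, edgeR adjusted p = 8.29e-06; 16.5-fold without HD-het 3) and 12.4-fold over HD-homo (log2 fold change -3.63 ± 0.34, edgeR adjusted p = 5.70e-06). Wnt7b had 2.02, 2.74 and 2.56 CPM in control, 0.114, 0.0275 and 0.284 in HD-het, and 0.501, 0.459 and 0.621 in HD-homo. It was lowest in HD-het, 19.5-fold below control (log2 fold change -4.29 ± 0.42, edgeR adjusted p = 7.51e-06). HD-homo was 4.67-fold below control (log2 fold change -2.22 ± 0.32, edgeR adjusted p = 0.000175) and 4.18-fold above HD-het (log2 fold change 2.06 ± 0.52, edgeR adjusted p = 0.00400). HD-het had 3, 1 and 6 footprints of Wnt7b. Without HD-het 2 it was 12.7-fold below control and 2.70-fold below HD-homo, and without HD-het 3 it was 36.4-fold and 7.70-fold below them. Wnt4, a ligand of kidney and gonad development, was present in control and HD-het and nearly lost in HD-homo, with 27, 34 and 40 footprints in control, 37, 41 and 44 in HD-het, and 0, 0 and 3 in HD-homo. Control exceeded HD-homo by a pooled ratio of 30.1-fold, with a 95% exact counting interval of 9.998 to 148 (edgeR adjusted p = 0.000215). HD-het exceeded HD-homo by 41.1-fold, with a 95% exact counting interval of 13.7 to 202 (edgeR adjusted p = 4.00e-05), and was not called apart from control (edgeR adjusted p = 0.313). Without HD-homo 1 these ratios were 17.3-fold and 23.6-fold, and without HD-homo 3, which held the 3 footprints of that line, control and HD-het were at least 11.3-fold and at least 15.5-fold higher, against the floor.

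The ligands of the Wnt5 type, which typically signal through ROR receptors without beta-catenin, peaked in HD-het. Wnt5a had 5.19, 6.11 and 3.16 CPM in control, 19.6, 17.5 and 28.4 in HD-het, and 9.40, 4.32 and 7.36 in HD-homo. Every HD-het library was above all 6 others, 4.46-fold over control (log2 fold change 2.16 ± 0.30, edgeR adjusted p = 9.29e-05) and 3.07-fold over HD-homo (log2 fold change -1.62 ± 0.29, edgeR adjusted p = 0.000438). HD-homo and control overlapped (edgeR adjusted p = 0.173, or 0.0362 without HD-homo 2). Wnt5b had 1.57, 1.69 and 1.58 CPM in control, 3.87, 4.54 and 4.96 in HD-het, and 1.42, 0.650 and 1.20 in HD-homo. HD-het was again clear of the rest, 2.75-fold over control (log2 fold change 1.46 ± 0.22, edgeR adjusted p = 0.000186) and 4.02-fold over HD-homo (log2 fold change -2.01 ± 0.24, edgeR adjusted p = 1.81e-05). Wnt9a ranged from 0.688 to 2.22 CPM and was higher in HD-het than in control (log2 fold change 0.80 ± 0.27, edgeR adjusted p = 0.0214), a call lost without control 2 or without HD-het 3 (highest edgeR adjusted p = 0.0965). Wnt2b had at most 12 footprints in a library and shares 1454 exon bases with St7l on the other strand, so its counts are uncertain. St7l was itself higher in HD-het than in control (edgeR adjusted p = 0.00264). In HD-homo St7l was lower than in control (edgeR adjusted p = 0.0354). Wnt2b had 1, 1 and 1 footprints in control, 5, 12 and 8 in HD-het, and 8, 4 and 10 in HD-homo, and was not tested.

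Summed per kb of coding length, which allows genes to be added, Wnt ligands amounted to 15.4 ± 1.39 CPM per kb in control against 31.4 ± 6.90 in HD-het and 46.0 ± 12.3 in HD-homo (mean ± SD, n = 3). The leading ligands differed by line. In control Wnt7a made up 27.9 ± 2.98% of this sum, Wnt5a 27.2 ± 6.50% and Wnt7b 15.0 ± 2.88%. In HD-het Wnt5a alone made up 60.6 ± 2.70%. In HD-homo Wnt10a made up 39.2 ± 4.91%, Wnt11 23.4 ± 2.00% and Wnt5a 13.1 ± 1.62%.

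**Figure D2:**
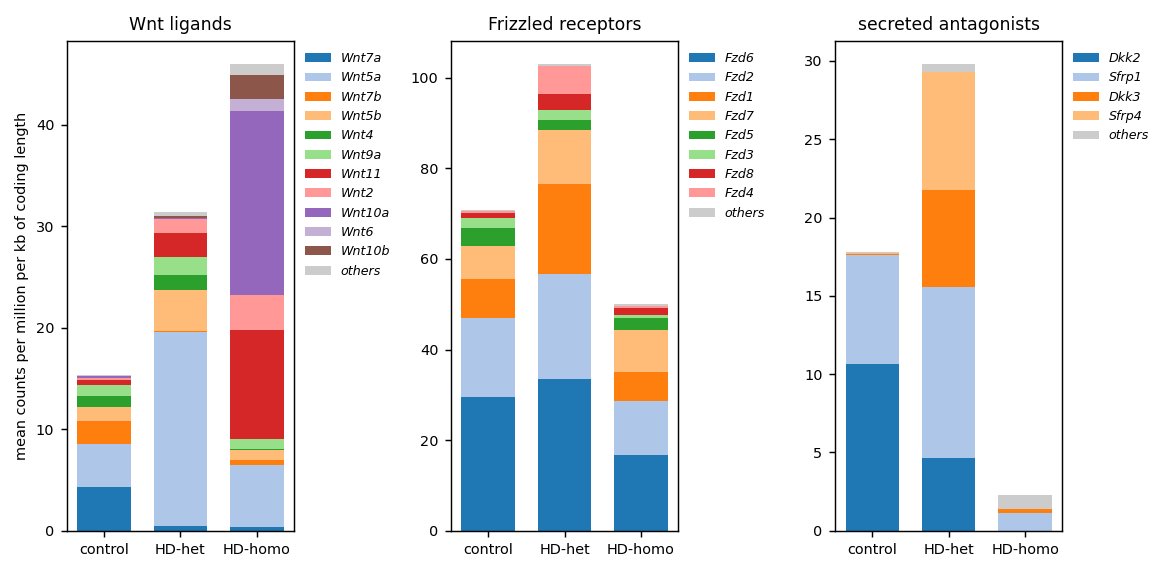
Stacked mean levels (CPM per kb of coding length, axis from 0, n = 3 libraries per line) of Wnt ligands, Frizzled receptors and secreted antagonists, with genes below 1 in every line pooled as others. Ligands amounted to 15.4, 31.4 and 46.0 in control, HD-het and HD-homo, Frizzled receptors to 70.9, 103 and 49.9, and antagonists to 17.8, 29.8 and 2.27.

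Frizzled receptors were higher in HD-het than in HD-homo in 6 of the 9 tested and lower in none, where 32.8% of all genes were higher and 34.6% lower in HD-het. Fzd6, which acts in hair and neural tube polarity, was the most abundant per coding length in every line, with 64.5, 69.5 and 54.7 CPM in control, 66.9, 70.2 and 77.2 in HD-het, and 44.97, 32.4 and 29.7 in HD-homo. HD-homo lay below all other libraries, 1.76-fold under control (log2 fold change -0.82 ± 0.15, edgeR adjusted p = 0.000972), and HD-het and control were not called apart (edgeR adjusted p = 0.304). Fzd4, the receptor for norrin in retinal vessels, had the largest fold changes among the tested Frizzled genes, with 1.07, 0.999 and 0.827 CPM in control, 8.27, 8.58 and 13.8 in HD-het, and 0.779, 0.726 and 1.20 in HD-homo. It was 10.4-fold higher in HD-het than in control (log2 fold change 3.38 ± 0.25, edgeR adjusted p = 1.21e-06) and 11.4-fold higher than in HD-homo (log2 fold change -3.52 ± 0.26, edgeR adjusted p = 5.02e-07). Control and HD-homo overlapped. Fzd4 shares 338 exon bases with Tmem135 on the other strand, which differed by a log2 fold change of 0.32 in HD-het against control.

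Fzd1 had 16.2, 18.3 and 15.3 CPM in control, 34.9, 30.9 and 48.6 in HD-het, and 14.0, 11.4 and 11.2 in HD-homo. It was 2.28-fold higher in HD-het than in control (log2 fold change 1.19 ± 0.16, edgeR adjusted p = 8.95e-05). It was lower in HD-homo than in control (log2 fold change -0.44 ± 0.17, edgeR adjusted p = 0.0485), but this call was lost without any 1 of the control libraries, HD-het 1, HD-homo 2 or HD-homo 3 (highest edgeR adjusted p = 0.156). Fzd8 had 2.06, 2.12 and 1.99 CPM in control, 5.84, 6.54 and 9.50 in HD-het, and 4.06, 2.37 and 3.55 in HD-homo. HD-het was 3.51-fold over control (log2 fold change 1.81 ± 0.23, edgeR adjusted p = 4.95e-05). Its rise in HD-homo over control (log2 fold change 0.70 ± 0.24, edgeR adjusted p = 0.0329) was lost without any 1 control library, without HD-homo 1 or without HD-homo 3 (highest edgeR adjusted p = 0.134). Fzd7 and Fzd2 varied less. Fzd7 had 12.3, 14.1 and 11.96 CPM in control, 19.9, 16.2 and 25.3 in HD-het, and 20.0, 13.9 and 13.9 in HD-homo and was higher in HD-het than in control (log2 fold change 0.67 ± 0.18, edgeR adjusted p = 0.00761). Fzd2 had 30.5, 33.2 and 25.0 CPM in control, 34.2, 32.5 and 52.0 in HD-het, and 28.6, 15.9 and 16.9 in HD-homo and was lower in HD-homo than in HD-het (log2 fold change -0.94 ± 0.24, edgeR adjusted p = 0.00422). HD-homo 1 lay above the other HD-homo libraries for Fzd2, and without it Fzd2 was also lower than in control (edgeR adjusted p = 0.00707).

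The motif search found 1 TCF/LEF motif in the 250 bases before the start of Fzd7 (chr1:59481897-59482146, plus strand), on the opposite strand and ending 123 bases before the start. It is shown in capitals as the only TCF/LEF match among the receptors with a listed window.
Fzd7: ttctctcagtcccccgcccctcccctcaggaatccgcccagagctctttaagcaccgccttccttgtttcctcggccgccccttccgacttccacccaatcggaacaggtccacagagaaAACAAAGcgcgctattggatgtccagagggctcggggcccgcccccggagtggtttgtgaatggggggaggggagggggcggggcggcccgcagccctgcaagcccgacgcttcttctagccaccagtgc

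Fzd5 was lower in both mutant lines and Fzd3 in HD-homo. Fzd5, a receptor of eye and gut development, had 7.03, 7.33 and 6.39 CPM in control, 3.95, 3.71 and 4.11 in HD-het, and 4.45, 4.17 and 4.74 in HD-homo. Control was clear of HD-het (log2 fold change -0.82 ± 0.12, edgeR adjusted p = 0.000160) and of HD-homo (log2 fold change -0.64 ± 0.12, edgeR adjusted p = 0.00127). Fzd3, which guides axon tracts, was at 3.69 to 4.73 CPM in control and HD-het and at 0.956 to 1.61 CPM in HD-homo, 3.26-fold below control (log2 fold change -1.70 ± 0.20, edgeR adjusted p = 3.89e-05). Fzd9 stayed between 0.188 and 0.756 CPM in all libraries and was called in no comparison. Per coding length the family amounted to 70.9 ± 8.02 CPM per kb in control against 103 ± 19.0 in HD-het and 49.9 ± 11.2 in HD-homo.

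**Figure D3:**
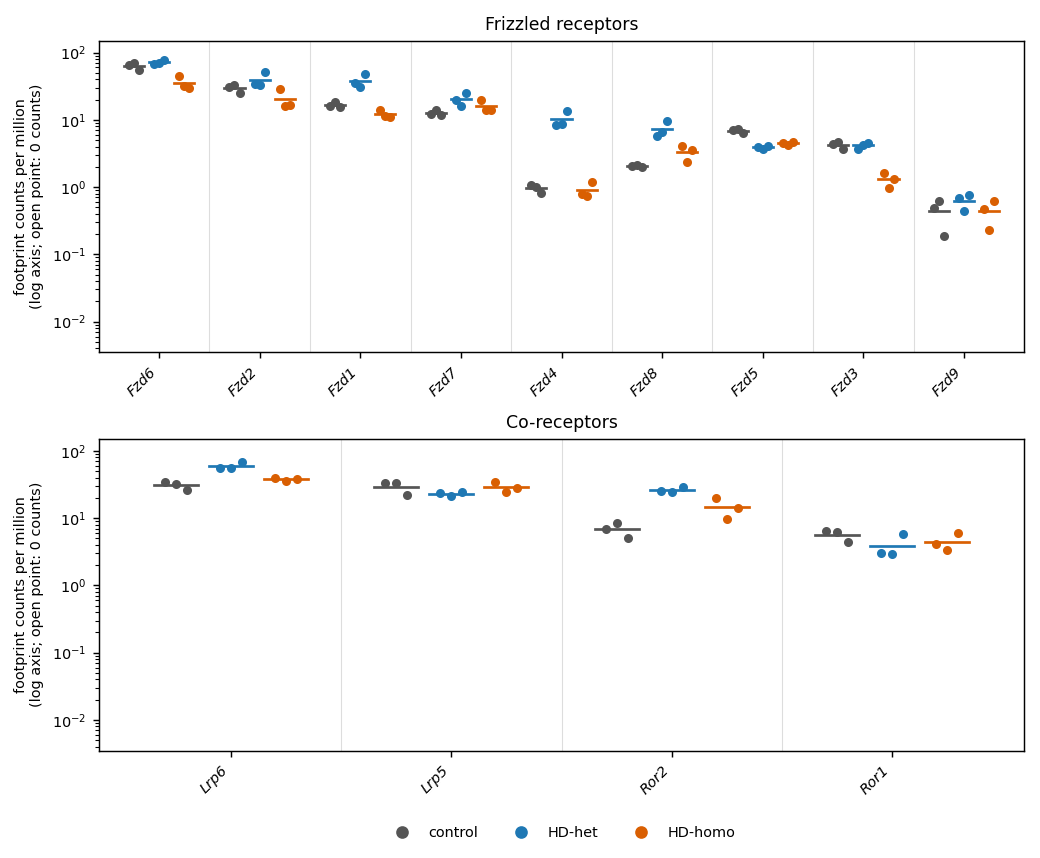
Footprint CPM (log axis) of 9 Frizzled receptors and 4 co-receptors in each library; points are libraries and bars are means of 3. Fzd4 stands out in HD-het at 8.27 to 13.8, against 0.726 to 1.20 in the other lines, Fzd3 and Fzd6 are lowest in HD-homo, and Lrp5 and Ror1 overlap between control and HD-homo.

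Of the co-receptors, Lrp6 and Ror2 were highest in HD-het, and Lrp5 and Ror1 were called in no comparison of the main fit. Lrp6, which is phosphorylated when Wnt binds and recruits axin, had 35.0, 32.5 and 26.5 CPM in control, 56.1, 55.8 and 68.0 in HD-het, and 39.4, 35.7 and 38.4 in HD-homo. Every HD-het library exceeded the others, 1.91-fold over control (log2 fold change 0.93 ± 0.12, edgeR adjusted p = 4.85e-05). Lrp5, its close relative, had 33.2, 33.1 and 22.2 CPM in control, 23.9, 21.6 and 24.1 in HD-het, and 34.7, 24.5 and 28.0 in HD-homo (lowest edgeR adjusted p of the 3 comparisons = 0.0879). Ror2, the receptor tyrosine kinase that responds to Wnt5a, had 6.99, 8.56 and 5.15 CPM in control, 25.2, 24.8 and 29.2 in HD-het, and 20.1, 9.71 and 14.4 in HD-homo. None of its lines overlapped, with HD-het 3.78-fold over control (log2 fold change 1.92 ± 0.24, edgeR adjusted p = 4.98e-05) and HD-homo 2.13-fold over control (log2 fold change 1.09 ± 0.24, edgeR adjusted p = 0.00365). Ror1 had 6.49, 6.21 and 4.36 CPM in control, 3.00, 2.97 and 5.77 in HD-het, and 4.17, 3.33 and 5.94 in HD-homo, with overlap between all lines (lowest edgeR adjusted p = 0.103). Scaled by library totals alone, or without HD-het 3, Ror1 was called lower in HD-het than in control (lowest edgeR adjusted p = 0.00954). Ror2 and Wnt5a had their highest level in the same line, HD-het. Beside the genes that peaked in HD-het, the sum of mesenchymal and mural markers was also highest in that line, at 40396 to 49987 CPM against at most 13282 CPM elsewhere, and its part in these differences was not tested. The 4 listed markers that were highest in HD-homo, Pdgfra and Col1a2 among them, were high in the same line as Wnt10a, Wnt11, Wnt2, Wnt10b, Wnt6 and Rspo2, and their part in those differences was not tested either.

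R-spondins were represented by Rspo2, which is known from limb, lung and muscle development. It had 0.458, 0.595 and 0.263 CPM in control, 0.987, 0.440 and 1.47 in HD-het, and 6.87, 7.15 and 9.84 in HD-homo. HD-homo was clear of the rest, 17.2-fold over control (log2 fold change 4.10 ± 0.36, edgeR adjusted p = 3.66e-06) and 8.70-fold over HD-het (log2 fold change 3.12 ± 0.34, edgeR adjusted p = 9.27e-06). HD-het overlapped with control at an edgeR adjusted p of 0.0750, which was 0.0101 without HD-het 2 and was also below the threshold by DESeq2. Rspo3, a vascular R-spondin, had 0, 0 and 0 footprints in control, 0, 8 and 5 in HD-het, and 12, 8 and 8 in HD-homo and was not tested, being at least 3.33-fold higher in HD-homo than the floor in control. Znrf3, the ligase on which R-spondins act, had 7.03, 8.18 and 6.77 CPM in control, 5.47, 6.13 and 8.70 in HD-het, and 7.51, 3.71 and 7.05 in HD-homo. All lines overlapped (lowest edgeR adjusted p = 0.405), and its relative Rnf43 had at most 3 counts in any library.

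Of 9 secreted antagonists, 5 were tested, and HD-homo was called lower than HD-het in 4 and higher in 1, Sfrp2, against 32.8% and 34.6% of all genes. Dkk2, a Dickkopf protein that binds LRP6, had 8.06, 8.61 and 8.16 CPM in control, 3.87, 3.44 and 3.55 in HD-het, and 0.0278, 0 and 0 in HD-homo. A single footprint was read in the 3 HD-homo libraries. Control exceeded HD-homo by a pooled ratio of 705-fold, with a 95% exact counting interval of 126 to 27897 (edgeR adjusted p = 3.02e-09), and control was 2.29-fold over HD-het (log2 fold change -1.20 ± 0.14, edgeR adjusted p = 3.51e-05). Without HD-homo 1, which held that footprint, control was at least 66.8-fold over HD-homo, against the floor. The 250 bases before its listed start (chr3:132085042-132085291, plus strand) are shown for the member that was most nearly absent from a line while abundant in another. This window reaches past the annotated gene start at 132085266.
Dkk2: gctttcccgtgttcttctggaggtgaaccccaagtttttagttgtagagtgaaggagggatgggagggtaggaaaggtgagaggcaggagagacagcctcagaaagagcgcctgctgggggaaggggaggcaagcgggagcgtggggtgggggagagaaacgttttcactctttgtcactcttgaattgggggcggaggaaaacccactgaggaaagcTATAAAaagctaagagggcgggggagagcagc
The capitals mark a TATA box that began 32 bases before the start, and none of the 4 TCF/LEF forms was found.

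Dkk3 and Sfrp4 were read almost only in HD-het. Dkk3, a divergent Dickkopf protein, had 3, 2 and 0 footprints in control, 188, 231 and 128 in HD-het, and 6, 8 and 4 in HD-homo. HD-het exceeded control by a pooled ratio of 124-fold, with a 95% exact counting interval of 52.7 to 382 (edgeR adjusted p = 1.10e-07) and was 30.0-fold over HD-homo (log2 fold change -4.91 ± 0.30, edgeR adjusted p = 1.22e-07). Its low counts in HD-homo were above those in control (edgeR adjusted p = 0.0245), a call lost without control 2, control 3 or HD-homo 2 (highest edgeR adjusted p = 0.085). Without control 1 the ratio of HD-het over control was 224-fold. Sfrp4, a secreted frizzled-related protein known from bone, had 1, 2 and 1 footprints in control, 193, 285 and 201 in HD-het, and 1, 0 and 1 in HD-homo. The pooled ratio of HD-het over control was 192-fold, with a 95% exact counting interval of 74.6 to 706 (edgeR adjusted p = 1.71e-08). Over HD-homo it was 343-fold, with a 95% exact counting interval of 94.5 to 2836 (edgeR adjusted p = 5.31e-09). Control and HD-homo libraries had 2 counts or fewer.

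Sfrp1, a secreted frizzled-related protein of neural precursors, had 7.83, 7.09 and 4.81 CPM in control, 9.37, 8.55 and 12.9 in HD-het, and 0.806, 1.11 and 1.33 in HD-homo. HD-homo was clear of both other lines, 6.22-fold below control (log2 fold change -2.64 ± 0.26, edgeR adjusted p = 9.29e-06) and 9.63-fold below HD-het (log2 fold change -3.27 ± 0.26, edgeR adjusted p = 8.71e-07). The smaller rise in HD-het over control (log2 fold change 0.63 ± 0.21, edgeR adjusted p = 0.0226) was lost without control 3 or without HD-het 3 (highest edgeR adjusted p = 0.113). Sfrp2 had 0, 1 and 1 footprints in control, 5, 11 and 8 in HD-het, and 15, 14 and 29 in HD-homo. Its ratio of HD-homo over control was 32.5-fold, with a 95% exact counting interval of 8.59 to 275 (edgeR adjusted p = 0.000330). HD-het also exceeded control, by 13.6-fold, with a 95% exact counting interval of 3.37 to 118 (edgeR adjusted p = 0.00552). The excess of HD-homo over HD-het (log2 fold change 1.30 ± 0.48, edgeR adjusted p = 0.0321) was lost by DESeq2 and without HD-het 1, HD-het 2 or HD-homo 3 (highest edgeR adjusted p = 0.143), and it was 1.63-fold without HD-homo 3 in place of 2.46-fold. Wif1 was not tested, at 1, 2 and 1 footprints in control, 3, 6 and 5 in HD-het, and 3, 1 and 0 in HD-homo. The class amounted to 17.8 ± 1.79 CPM per kb in control against 29.8 ± 3.18 in HD-het and 2.27 ± 0.740 in HD-homo, which did not overlap.

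**Figure D4:**
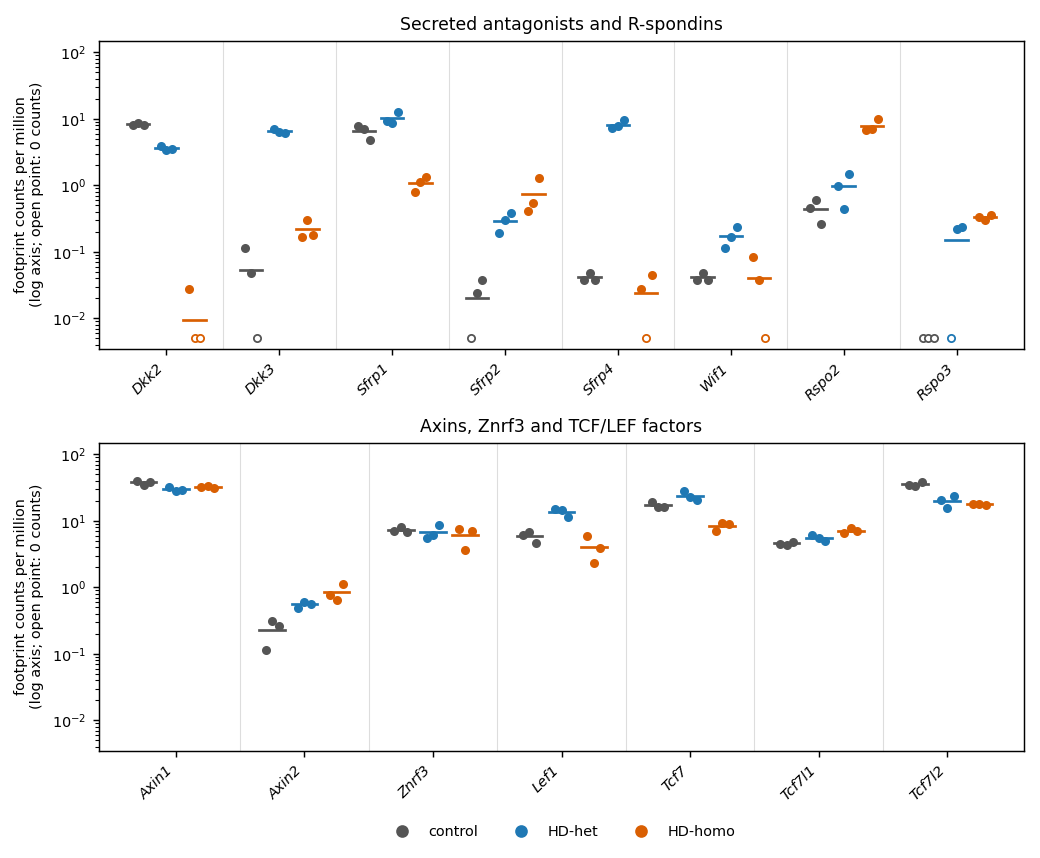
Footprint CPM (log axis) of secreted antagonists, R-spondins, axins, Znrf3 and TCF/LEF factors in each library; points are libraries, bars are means of 3, and open points mark 0 counts. Dkk2 falls to 1 footprint in 3 libraries in HD-homo, Dkk3 and Sfrp4 stand at 6.05 to 7.13 and 7.32 to 9.50 in HD-het, and Rspo2 at 6.87 to 9.84 in HD-homo.

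Inside the cell, Axin1, the scaffold of the complex that degrades beta-catenin, varied little, with 39.8, 35.0 and 38.8 CPM in control, 32.6, 27.9 and 29.0 in HD-het, and 32.3, 33.3 and 31.4 in HD-homo. It was lower in HD-het than in control (log2 fold change -0.34 ± 0.09, edgeR adjusted p = 0.00696). Axin2, a negative-feedback target of beta-catenin and TCF/LEF, was scarce, with 3, 13 and 7 footprints in control, 13, 22 and 12 in HD-het, and 28, 17 and 25 in HD-homo. It was higher in HD-homo than in control (log2 fold change 1.78 ± 0.35, edgeR adjusted p = 0.00157), a call made under every alternative in which it was tested. It was also higher in HD-het than in control (log2 fold change 1.21 ± 0.37, edgeR adjusted p = 0.0152), but that call was lost without control 1 or HD-het 2 (highest edgeR adjusted p = 0.0605).

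Of the TCF/LEF factors, Lef1 and Tcf7 were highest in HD-het, Tcf7 was lowest in HD-homo, Tcf7l2 was highest in control and Tcf7l1 in HD-homo. Lef1, which is itself induced by Wnt signals, had 6.22, 6.71 and 4.70 CPM in control, 15.3, 14.5 and 11.5 in HD-het, and 5.84, 2.33 and 3.95 in HD-homo. HD-het was clear of the rest, 2.34-fold over control (log2 fold change 1.23 ± 0.25, edgeR adjusted p = 0.00154) and 3.37-fold over HD-homo (log2 fold change -1.75 ± 0.26, edgeR adjusted p = 0.000121). For Lef1, HD-homo and control overlapped and were not called apart (edgeR adjusted p = 0.134, or 0.0117 without HD-homo 1). Tcf7, the gene for TCF1, had 19.0, 16.4 and 16.0 CPM in control, 27.8, 22.9 and 20.6 in HD-het, and 7.15, 9.14 and 9.05 in HD-homo. Its lines did not overlap, and HD-homo was 2.03-fold below control (log2 fold change -1.02 ± 0.14, edgeR adjusted p = 0.000132). The rise in HD-het (log2 fold change 0.48 ± 0.14, edgeR adjusted p = 0.0103) was lost without HD-het 1 (edgeR adjusted p = 0.0639). Tcf7 shares 332 exon bases with Skp1, a far more abundant gene on the other strand that is listed as Skp1a and was lower in HD-het than in control (log2 fold change -0.44).

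Tcf7l2, the gene for TCF4 and the main TCF of postmitotic thalamic neurons, had 35.3, 33.8 and 38.9 CPM in control, 20.3, 15.8 and 23.5 in HD-het, and 17.9, 18.2 and 17.6 in HD-homo. Control was clear of both mutant lines, 1.82-fold over HD-het (log2 fold change -0.86 ± 0.13, edgeR adjusted p = 0.000171) and 2.01-fold over HD-homo (log2 fold change -1.01 ± 0.13, edgeR adjusted p = 7.47e-05). Tcf7l1, the gene for TCF3, which mostly acts as a repressor, had 4.51, 4.38 and 4.85 CPM in control, 6.22, 5.58 and 4.96 in HD-het, and 6.48, 7.84 and 7.01 in HD-homo. It was higher in HD-homo than in control (log2 fold change 0.63 ± 0.13, edgeR adjusted p = 0.00232). Its excess over HD-het (log2 fold change 0.34 ± 0.13, edgeR adjusted p = 0.0376) was lost by DESeq2 and without any 1 of control 1, control 2, HD-het 2, HD-het 3, HD-homo 2 or HD-homo 3 (highest edgeR adjusted p = 0.112). Together the 4 factors amounted to 46.1 ± 1.72 CPM per kb in control against 51.8 ± 5.49 in HD-het and 26.5 ± 0.321 in HD-homo.

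**Figure D5:**
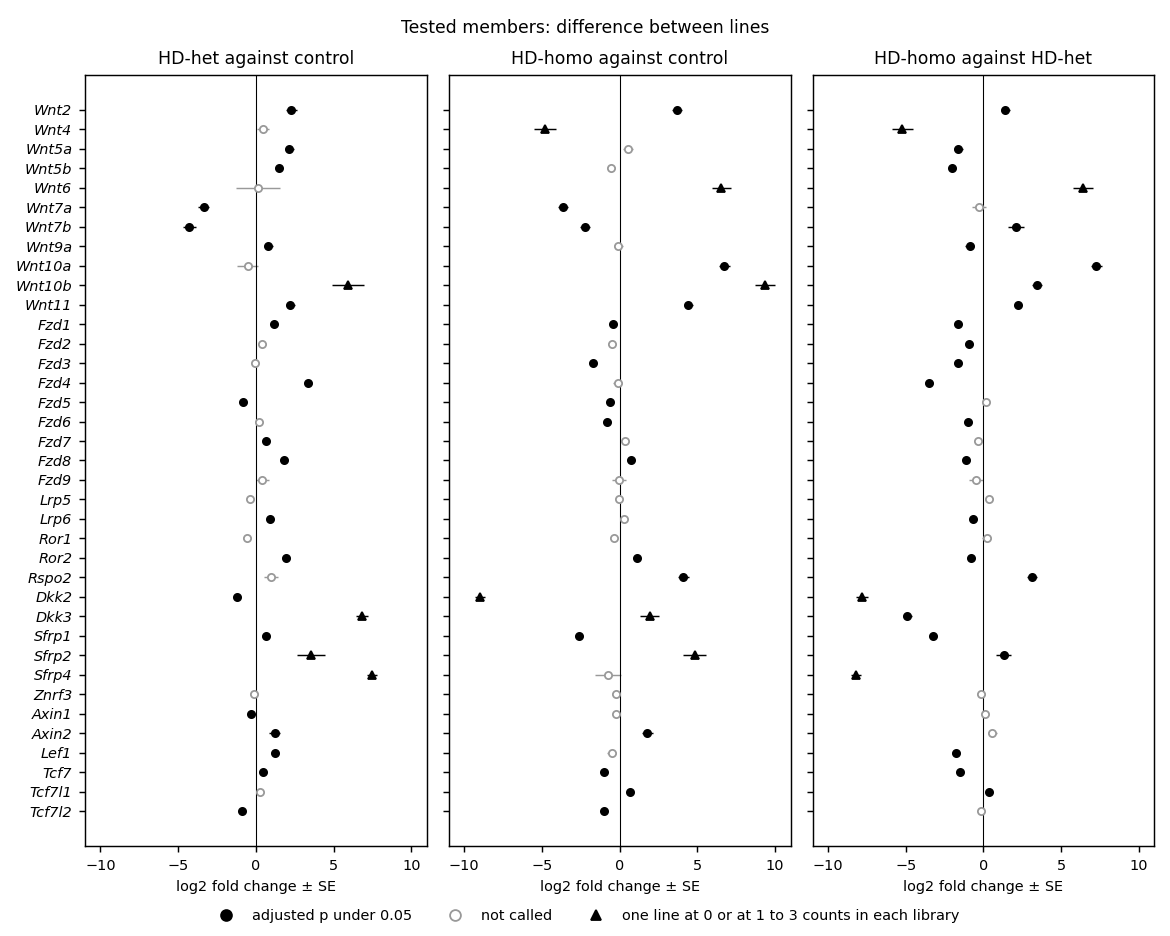
Log2 fold change with its standard error (edgeR) of the 37 tested members in each of the 3 comparisons; filled symbols have an adjusted p under 0.05, and triangles mark genes with one line at 0 or at 1 to 3 counts per library, whose fitted value is no bound. In HD-homo against control, Wnt10a, Wnt11, Rspo2 and Wnt2 lie at 3.68 to 6.73 on the higher side, and Wnt7a and Sfrp1 at -3.63 and -2.64 on the lower side.

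Other genes of the pathway were taken from 4 lists, to be read against the shares of all genes: 31.0% higher and 29.1% lower in HD-het against control, 23.3% and 22.3% in HD-homo against control, and 34.6% and 32.8% in HD-homo against HD-het. Of 31 genes of the intracellular cascade and of Wnt secretion, all tested, 13 were higher and 4 lower in HD-het against control, 6 higher and 8 lower in HD-homo against control, and 4 higher and 17 lower in HD-homo against HD-het. The median log2 fold changes were 0.24, -0.07 and -0.31, against 0.02 for all genes in each comparison. Wls, the carrier of Wnts to the cell surface, was at 185 ± 15.1 CPM in control against 429.8 ± 53.8 in HD-het and 225 ± 11.6 in HD-homo (HD-het against control log2 fold change 1.22 ± 0.10, edgeR adjusted p = 3.12e-06). Porcn, the enzyme that attaches the lipid to Wnts, was at 3.25 ± 0.616, 5.44 ± 1.56 and 0.470 ± 0.244 CPM, and fell in HD-homo against HD-het (log2 fold change -3.43 ± 0.33, edgeR adjusted p = 3.62e-06). HD-homo, with the highest mean ligand sum, though it overlapped with HD-het, had the lowest mean of Porcn. Apc2, a relative of APC found in neurons, was at 1.07 ± 0.224, 8.95 ± 0.245 and 1.78 ± 0.269 CPM (HD-het against control log2 fold change 3.10 ± 0.18, edgeR adjusted p = 2.02e-07).

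Among other surface receptors and secreted modulators, 22 of 24 listed genes had a row and 14 were tested. Of these, 11 were higher and 1 lower in HD-het against control, 6 higher and 5 lower in HD-homo against control, and 3 higher and 11 lower in HD-homo against HD-het (median log2 fold changes 1.10, 0.03 and -1.13). Notum, the secreted enzyme that removes the Wnt lipid, was the lower one in HD-het, at 7.71 ± 0.460 CPM in control against 2.17 ± 0.450 in HD-het and 28.4 ± 7.88 in HD-homo (HD-homo against control log2 fold change 1.88 ± 0.19, edgeR adjusted p = 1.19e-05). Lgr4 and Lgr6, receptors for R-spondins, differed in pattern. Lgr4 was at 9.15 ± 1.73, 43.4 ± 2.15 and 15.8 ± 1.91 CPM in control, HD-het and HD-homo (HD-het against control log2 fold change 2.24 ± 0.14, edgeR adjusted p = 4.17e-07). Lgr6 was at 1.76 ± 0.310, 9.42 ± 4.78 and 20.0 ± 10.9 CPM (HD-homo against control log2 fold change 3.49 ± 0.50, edgeR adjusted p = 0.000160). Lgr6 and Rspo2 were highest in the same line. Adgra2, the partner of RECK in the response to Wnt7a and Wnt7b, was at 10.9 ± 0.742, 43.8 ± 3.26 and 2.03 ± 0.868 CPM (HD-homo against control log2 fold change -2.43 ± 0.22, edgeR adjusted p = 3.93e-06).

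For planar polarity, 12 of 14 genes were tested, with 5 higher and 2 lower in HD-het against control, 3 higher and 5 lower in HD-homo against control, and 2 higher and 8 lower in HD-homo against HD-het (median log2 fold changes 0.36, 0.09 and -1.20). Prickle2 was at 2.23 ± 0.324, 13.8 ± 1.82 and 3.92 ± 0.684 CPM in control, HD-het and HD-homo (HD-het against control log2 fold change 2.63 ± 0.17, edgeR adjusted p = 5.13e-07). Daam1, a formin, fell in HD-homo against control (log2 fold change -1.19 ± 0.11, edgeR adjusted p = 6.97e-06). The last list held genes often induced by beta-catenin and TCF/LEF. Of 15 tested, 8 were higher and 5 lower in HD-het against control, 4 higher and 5 lower in HD-homo against control, and 6 higher and 9 lower in HD-homo against HD-het (median log2 fold changes 0.46, -0.31 and -0.93). Ephb2 and Ephb3, ephrin receptors, rose in HD-het against control (log2 fold change 2.81 ± 0.17, edgeR adjusted p = 2.27e-07 for Ephb2, and log2 fold change 1.72 ± 0.18, edgeR adjusted p = 1.11e-05 for Ephb3). Ccnd1, the cyclin of G1, fell from 458 ± 65.1 CPM in control to 78.2 ± 1.495 in HD-het (log2 fold change -2.55 ± 0.16, edgeR adjusted p = 3.15e-07). Tnfrsf19 rose in HD-homo against control (log2 fold change 2.99 ± 0.23, edgeR adjusted p = 1.30e-06), and Apcdd1 fell (log2 fold change -2.40 ± 0.27, edgeR adjusted p = 2.97e-05). Notum and Apcdd1 stand on both this list and the list of modulators, so those counts are not independent.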

How the data were processed

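Ribosome footprints were sequenced from 9 libraries, 3 per cell line. Per the labels, the authors trimmed adapters with cutadapt and aligned reads with Bowtie 1.0.1 to mm10. The authors deposited whole-number counts per gene symbol; how reads were assigned to genes, from which annotation and with what strand setting, is not given in the sources used here, so overlapping genes on opposite strands cannot be separated. Exons of 17 members overlapped those of another gene, among them Fzd6 (502 bases), Tcf7l2 (452) and Wnt5b (367). No other sample column was present (0 unused).

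Counts were tested with edgeR 4.0.16 (R 4.3.3; TMM scaling, filterByExpr, glmQLFit and glmQLFTest, 1 fit to all libraries, Benjamini-Hochberg over 12678 genes, threshold 0.05). DESeq2 1.42.0, other scalings and filters, the replicate number as a block, and leaving out each library were alternatives. Rounds of culture were the replicates. Correlations between lines of deviations from the line mean ran from -0.36 to 0.17 for same-numbered libraries. For differently numbered libraries they ran from -0.28 to 0.38. With 3 libraries per line these deviations are not independent, so they cannot decide whether libraries were paired or shared a batch.

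Values in each library are given for members with a mean of at least 5 CPM in a line, or called at 4-fold or more with at least 1 CPM; others are given by range or, where low, by counts. From the pathway lists, up to 3 rises and 3 falls per comparison with at least 5 CPM could be named. A level of 0 in a line was bounded by 3 counts per library, and a line with 1 to 3 counts was compared by pooled counts with an exact 95% interval; these intervals cover counting error only. Coding lengths were the longest coding sequence in GENCODE M21, used in place of RefSeq proteins. All 54 symbols matched RefSeq (GRCm38.p6), and 283 other rows carry older symbols. The members and lists were chosen with earlier results of these data known.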

Additional observations from a re-analysis of the deposited data

How the results depend on the processing

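Of 111 pairs of member and comparison tested, 75 were called. Of these, 66 kept direction and call under every alternative in which the pair was tested, and 9 lost the call under some alternative. Among uncalled pairs, 12 gained a call, and no called pair changed direction. A pair whose gene was filtered out under an alternative was not counted there. The counts moved by more than 1.5 times in few settings. With at least 10 counts required in every library, only 22 members were tested, and that filter removes genes absent from a line: 12 were higher and 3 lower in HD-het against control, 3 higher and 6 lower in HD-homo against control, 1 higher in HD-homo against HD-het, and 19 differed among lines. With at least a 2-fold change, 3 were lower in HD-het against control. Leaving out 1 library at a time gave 17 to 19 higher and 6 to 7 lower in HD-het against control, 11 to 13 higher and 10 to 14 lower in HD-homo against control, 7 to 11 higher and 18 to 20 lower in HD-homo against HD-het, and 32 to 35 among the lines. With the replicate number as a block, 19 and 6, 12 and 10, and 8 and 18 members were higher and lower in these comparisons and 33 differed among lines; 2 of 111 calls changed (Fzd1 in HD-homo against control and Tcf7l1 in HD-homo against HD-het). DESeq2 called 20 and 6, 12 and 12, and 7 and 18. The depth limits the low members: 17 were not tested, and under the floor of 3 counts no difference was detectable.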
